A study of Mus musculus with 2 samples.

Results

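A set of 10 genes from 2 kinds of keratinocyte junction was followed through the cell types of healing mouse wounds. It held 7 desmosome genes (Dsg1a, Dsg3, Dsc1, Dsc2, Dsc3, Dsp and Perp) and 3 connexin genes of the gap junction (Gjb2, Gjb6 and Gja1). The members were found by their symbols among the 27998 genes of both count matrices, and all 10 were present. The skin came from male wildtype C57BL/6J mice aged 6 to 8 weeks with round dorsal wounds of 1.8 cm. In the WT_LW group the wounds received PBS according to the labels and methods, although one legend of the study names a control oligonucleotide. In the TLR9agonist_LW group they received ODN2395, an agonist of the DNA sensor TLR9, on days 0, 3 and 6. Tissue from the wound centre was taken 2 days after the scab came off, and the epidermis and dermis were separated with enzymes, dissociated and recombined. Each group gave 1 library pooled from several mice, so no test between the groups was possible, and differences between mice or preparations cannot be told apart from the treatment.

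Desmosomes join neighbouring keratinocytes and anchor their keratin filaments. Desmogleins (Dsg) and desmocollins (Dsc) are the cadherins that meet between the cells, desmoplakin (Dsp) ties the inner plaque to keratin, and Perp is a membrane protein needed for stable desmosomes in stratified epithelium. In resting epidermis Dsg3 and Dsc3 are known for the lower layers and Dsg1 and Dsc1 for the upper layers. Connexins form channels through which small molecules pass between cells. Connexin 43 (Gja1) is found in epidermis, fibroblasts and vessels, while connexin 26 (Gjb2) and connexin 30 (Gjb6) are low in resting interfollicular epidermis of the body and are known to rise at wound edges and in hyperproliferative epidermis.

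The connexin genes are shown with the 250 bases before their start sites, because Gjb2 and Gjb6 are neighbours that were both higher in differentiated-like than in basal-like cells, and Gja1 was not. By Ensembl identifier in GENCODE (GRCm38), Gjb2 lies at chr14:57098600-57104702 and Gjb6 at chr14:57123303-57133611, both on the minus strand and 18600 bases apart. Gja1 lies at chr10:56377330-56402513, Perp at chr10:18845020-18857073 and Dsp at chr13:38151294-38198577, all on the plus strand. The sequences are from RefSeq (GRCm38.p6), read 5′ to 3′ on the strand of the gene up to the RefSeq start, which for Gja1 lies shortly before that of GENCODE, and capitals mark matches on either strand to an AP-1 motif (TGANTCA), a Grhl motif (AACCNGTT) or a GC box (GGGCGG).
Gjb2 (chr14:57104703-57104952, minus strand): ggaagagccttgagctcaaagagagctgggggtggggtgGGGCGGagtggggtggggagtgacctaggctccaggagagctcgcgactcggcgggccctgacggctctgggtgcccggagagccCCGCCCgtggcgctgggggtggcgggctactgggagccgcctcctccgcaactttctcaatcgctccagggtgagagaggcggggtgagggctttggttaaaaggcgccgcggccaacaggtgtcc
Gjb6 (chr14:57133612-57133861, minus strand): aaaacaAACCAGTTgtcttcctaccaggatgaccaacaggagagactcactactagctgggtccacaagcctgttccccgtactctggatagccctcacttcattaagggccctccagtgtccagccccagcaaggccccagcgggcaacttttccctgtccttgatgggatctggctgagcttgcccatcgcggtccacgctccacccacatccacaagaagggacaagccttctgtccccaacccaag
Gja1 (chr10:56377050-56377299, plus strand): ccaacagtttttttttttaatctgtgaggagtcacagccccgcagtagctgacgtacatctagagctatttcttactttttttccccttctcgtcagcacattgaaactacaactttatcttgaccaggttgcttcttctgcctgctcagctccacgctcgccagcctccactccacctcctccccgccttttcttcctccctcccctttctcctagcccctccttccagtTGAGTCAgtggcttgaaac
The window of Gjb2 held 2 GC boxes, that of Gjb6 held 1 Grhl match, and that of Gja1 held 1 AP-1 match. Among all 32851 promoter windows of that length, 32.7% held a GC box, 1.79% a Grhl match and 6.75% an AP-1 match. The window before Dsp held 4 GC boxes and neither other motif. No motif was shared by the windows of Gjb2 and Gjb6, and a match describes letters only.

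The libraries held 12800 and 13751 cell barcodes with 99374045 and 132339022 UMIs (unique molecular identifiers, each standing for 1 captured RNA molecule), and they shared 47 barcodes. After filtering, 10412 cells of WT_LW and 11869 of TLR9agonist_LW were used. Cell names rest on marker genes and mean cells like the named type. Keratinocytes made up 472 cells of WT_LW (4.53%) and 1148 of TLR9agonist_LW (9.67%), with median depths of 14306.5 and 23186 UMIs. Among them the basal-like subset held 72 and 167 cells, the differentiated-like subset 122 and 434, the upper hair follicle-like subset 43 and 57, cycling cells 36 and 94, and 165 and 376 keratinocytes stayed unnamed. Dissociation and stress genes differed between the libraries too. In keratinocytes, 4 of 10 such genes were at least 2-fold higher in TLR9agonist_LW (Hspa1a, Hspa1b, Hspb1 and Dnajb1) and 2 were at least 2-fold lower (Fos and Fosb). Of all genes with at least 50 UMIs there, 2.55% were higher and 20.3% lower to that extent. The part of the stress genes in the results was not tested. The same holds for marker lists of other cells in keratinocytes. The summed level of 8 fibroblast markers was 1029.7 CPM (UMIs per 1000000 UMIs of the group) and 1324 CPM, and that of 6 neutrophil markers, which include genes that keratinocytes also express, was 3045 and 16475 CPM.

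Desmosome RNA was concentrated in keratinocytes. Between 85.9% (Dsc2) and 92.3% (Dsc1) of the UMIs of the 7 desmosome genes in WT_LW, and between 85.6% (Perp) and 90.2% (Dsg3) in TLR9agonist_LW, came from keratinocytes, which held 10.98% and 25.4% of all UMIs. These shares rest on how cells were sorted into classes. With Gjb2 and Gjb6 included, 9 of 10 genes had at least 80% of their UMIs in keratinocytes of each library, but with predicted doublets kept 3 did in WT_LW and 0 in TLR9agonist_LW, and with a marker gate on single cells 0 did in TLR9agonist_LW. Perp was the most abundant member, with 2091 CPM in WT_LW keratinocytes and 2036 CPM in TLR9agonist_LW keratinocytes. Dsp followed with 1245 and 1000.4 CPM. The desmosomal cadherins were led by Dsc3 (487 and 499.9 CPM) and Dsg1a (280.0 and 235 CPM), and Dsc2 was near the limit of detection with 7.66 and 6.21 CPM. In this 3′ assay each UMI stands for 1 captured molecule, so the levels were not divided by gene length. The 5 desmosomal cadherin genes lie together on 1 chromosome, and no sequence of theirs is shown. Dsg1a has close paralogs whose reads may be split or discarded, and Dsg1b had 57.6 and 65.6 CPM.

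**Figure D1:**
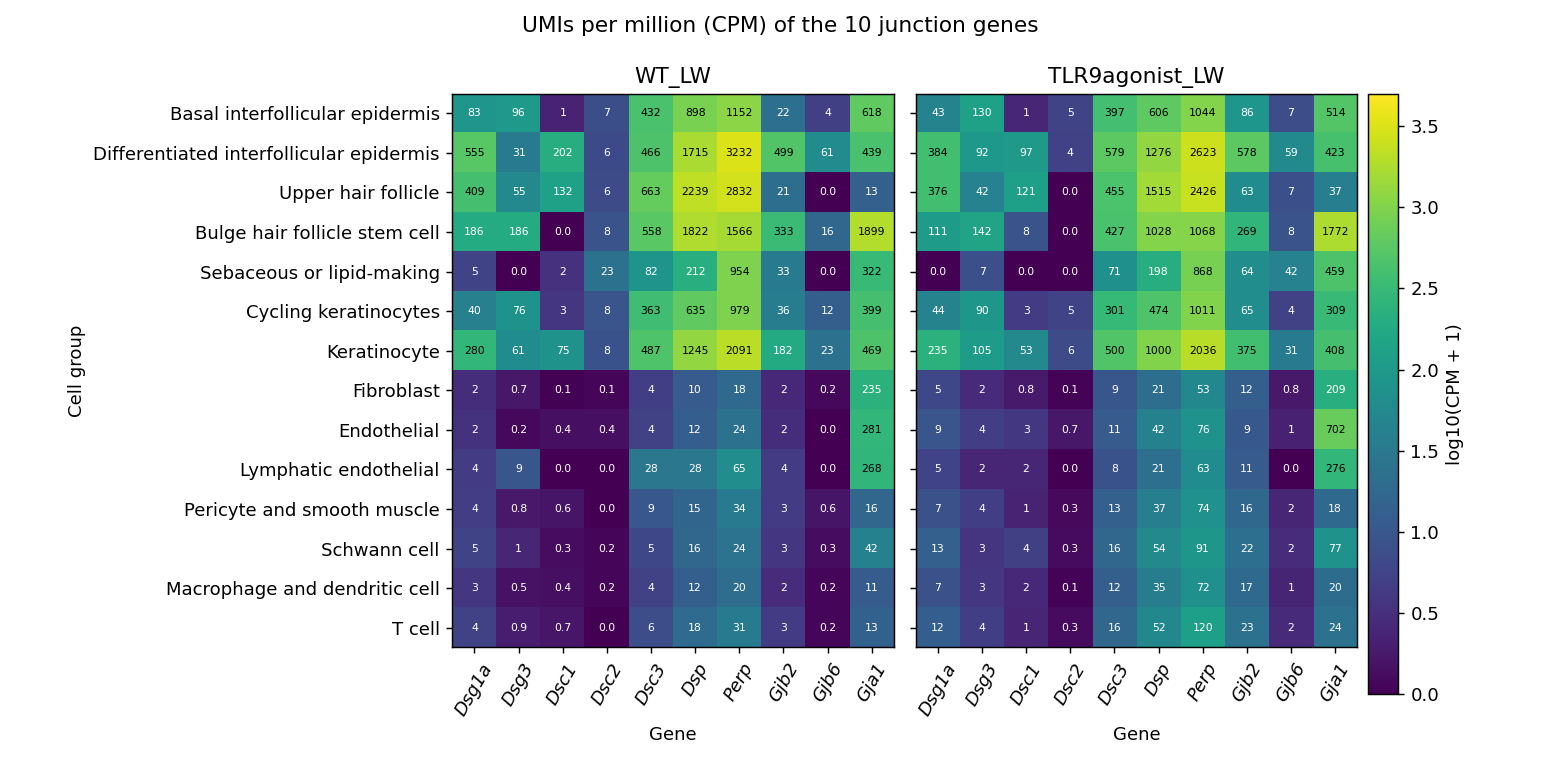
Level of each of the 10 genes (columns, UMIs per 1000000) in keratinocyte subsets and other cell classes (rows) of WT_LW (left) and TLR9agonist_LW (right), with colour on a log10(CPM + 1) scale and the CPM printed in each cell. Keratinocytes carry the desmosome genes, Gjb2 and Gjb6, whereas Gja1 is also high in fibroblasts (235 and 209 CPM) and endothelial cells (281 and 702 CPM).

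The upper-layer cadherins were higher in differentiated-like cells of both libraries, and Dsc1 had the largest ratio of the 10 genes. Dsc1 was carried by 2 UMIs in basal-like cells of WT_LW (1.36 CPM) against 202 CPM in differentiated-like cells, and by 5 UMIs (1.499 CPM) against 97.3 CPM in TLR9agonist_LW. The log2 ratio of differentiated-like to basal-like cells was 7.22 (95% counting interval 5.36 to 10.27) in WT_LW and 6.02 (4.79 to 7.65) in TLR9agonist_LW. The other settings that gave a value put it between 3.34 and 8.24 in WT_LW and between 2.84 and 11.75 in TLR9agonist_LW. Dsg1a showed the same order, with 82.8 and 555 CPM in WT_LW and 43.5 and 384 CPM in TLR9agonist_LW. Its log2 ratios were 2.75 and 3.14, and the marker gate lowered them to 1.502 and 1.64. Perp was 1152 and 3232 CPM in basal-like and differentiated-like cells of WT_LW, and 1044 and 2623 CPM in TLR9agonist_LW. Dsp was nearer to even, with log2 ratios of 0.93 and 1.08.

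Of the lower-layer cadherins, Dsg3 had the reverse order and Dsc3 was nearly even in WT_LW. Dsg3 was 95.7 CPM in basal-like and 30.9 CPM in differentiated-like cells of WT_LW, a log2 ratio of -1.63 (-2.07 to -1.21). In TLR9agonist_LW the same subsets had 130.1 and 91.9 CPM, a log2 ratio of -0.50 (-0.67 to -0.33), so the gradient of Dsg3 was shallower there and the intervals did not overlap. Under the other settings the gradient was between -2.68 and -1.13 in WT_LW and between -1.33 and -0.03 in TLR9agonist_LW, and it was shallower in TLR9agonist_LW under each of them. Dsc3 had a log2 ratio of 0.11 (-0.04 to 0.25) in WT_LW, and in TLR9agonist_LW it was higher in differentiated-like cells, with 397 and 579 CPM and a log2 ratio of 0.55 (0.46 to 0.63). Dsc2 was too rare in these subsets for a direction (-0.22 and -0.12, both intervals spanning 0).

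Gjb2 and Gjb6 were higher in the differentiated-like subset taken as a whole. Gjb2 was 21.7 CPM in basal-like and 499.5 CPM in differentiated-like cells of WT_LW, against 86.0 and 578 CPM in TLR9agonist_LW, and the log2 ratio between the layers was 4.52 (4.02 to 5.08) and 2.75 (2.58 to 2.92). This gap between the libraries depended on the clustering, since the ratios were 2.66 and 2.77 without batch correction and 1.14 and 1.09 with a marker gate on single cells. Gjb6 was 4.07 and 60.8 CPM in WT_LW and 6.59 and 58.9 CPM in TLR9agonist_LW. Its level was uneven among the differentiated-like sub-clusters. In the one led by Calm5 and Krt10 Gjb6 was 1.28 CPM (1 UMI) in WT_LW and 7.99 CPM (25 UMIs) in TLR9agonist_LW, near the basal-like levels. Among the 4 with at least 15 cells in each library its highest level was 156 CPM in WT_LW and 130 CPM in TLR9agonist_LW. Gja1 was slightly lower in differentiated-like cells of both libraries, with 618 and 439 CPM in WT_LW and 514 and 423 CPM in TLR9agonist_LW. Under the other settings its log2 ratio was between -0.87 and -0.16 in WT_LW. In TLR9agonist_LW it was between -0.98 and 0.24, so the sign was not stable there. The same 4 sub-clusters ranged from 271 to 610 CPM of Gja1 in WT_LW and from 237 to 1436 CPM in TLR9agonist_LW. In all, 5 of 10 genes in WT_LW (Dsc1, Gjb2, Gjb6, Dsg1a and Perp) and 6 of 10 in TLR9agonist_LW (these and Dsp) were at least 2-fold higher in differentiated-like cells, against 8.65% and 7.5% of all genes with at least 50 UMIs in the 2 subsets. Perp fell below 2-fold in both libraries with the marker gate (log2 ratios of 0.79 and 0.76), as did Dsp in TLR9agonist_LW (0.67), and the count there was 5 with the stricter cell filter and 4 at Leiden resolution 2. Dsg3 was the 1 gene at least 2-fold lower, in WT_LW, where 16.2% of genes were, and in TLR9agonist_LW 0 members and 20.7% of genes were.

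**Figure D2:**
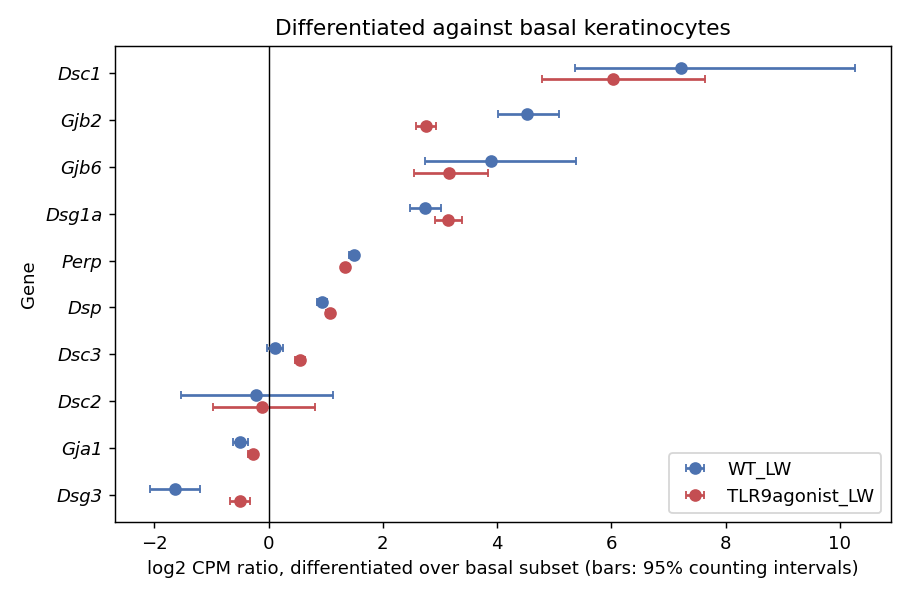
Log2 ratio of the level in differentiated-like over basal-like keratinocytes for each gene (rows) in WT_LW (blue) and TLR9agonist_LW (red), with 95% counting intervals as bars. Dsc1, Gjb2, Gjb6 and Dsg1a lie far to the right in both libraries, Dsg3 lies on the left, and the points of Gjb2 (4.52 and 2.75, a gap that is absent without batch correction) and of Dsg3 (-1.63 and -0.50) are apart between libraries.

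The hair follicle-like subsets differed from the interfollicular ones in Gja1 and also in Gjb2. In upper hair follicle-like cells Gja1 was nearly absent (6 UMIs, 12.6 CPM, in WT_LW and 43 UMIs, 37.0 CPM, in TLR9agonist_LW), at or close to the levels of 13.2 and 23.5 CPM in T cells, which are taken here as a measure of free RNA. The same cells had 2239 and 1515 CPM of Dsp and 132 and 121 CPM of Dsc1. Differentiated-like cells had 1715 and 1276 CPM of Dsp and 202 and 97.3 CPM of Dsc1. In the 17 and 14 cells like bulge stem cells, Gja1 was instead 1899 and 1772 CPM, above every other keratinocyte sub-cluster. Dsc1 had 0 and 1 UMIs there, and it was also rare in the larger basal-like subset, with 2 and 5 UMIs. Gjb6 had 0 and 8 UMIs in upper hair follicle-like cells. Gjb2 was 21.0 CPM (10 UMIs) and 62.9 CPM (73 UMIs) in them, against 499.5 and 578 CPM in differentiated-like cells. In the cells like bulge stem cells Gjb2 was 333 CPM (43 UMIs) and 269 CPM (34 UMIs), against 21.7 and 86.0 CPM in basal-like cells.

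The comparison of the 2 libraries asks whether the agonist-treated wounds differ in junction RNA. Over all keratinocytes Gjb2 was the member that differed most, with 182 CPM in WT_LW and 375 CPM in TLR9agonist_LW, a log2 ratio of 1.05 (0.97 to 1.12). Dsg3 was 61.1 and 105 CPM, a log2 ratio of 0.78 (0.65 to 0.92). Gjb6 was 22.9 and 31.2 CPM (0.45, 0.22 to 0.68). Dsc1 was the lowest ratio, with 75.1 and 53.4 CPM (-0.49, -0.63 to -0.36). The log2 ratios of Dsg1a, Dsc2, Dsp and Gja1 lay between -0.32 and -0.20, and those of Perp and Dsc3 were -0.04 and 0.04. Of the 10 genes, 1 (Gjb2) was at least 2-fold higher in TLR9agonist_LW, where 2.55% of all 10950 genes with at least 50 UMIs were, and 0 were at least 2-fold lower, where 20.3% of genes were.

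Most genes, though not all, had a lower CPM in keratinocytes of TLR9agonist_LW, and this bears on the signs. Of 10950 counted genes, 1974 had a log2 ratio above 0. The median gene had a log2 ratio of -0.44. Relative to it, Gjb2 was at 1.49, Dsg3 at 1.22 and Dsc1 at -0.05, and Dsg1a, Dsc2, Dsp, Perp and Gja1 turned from below 0 to between 0.13 and 0.40. On that scale 2 of 10 genes (Gjb2 and Dsg3) were at least 2-fold higher, against 5.74% of all genes, and 0 lower, against 7.1%. Within the basal-like and the differentiated-like subset, Dsg1a, Dsp and Perp stayed below 0 relative to the median gene of the subset. The signs of small ratios were not stable. Of the 10 genes, 7 (Dsg1a, Dsc1, Dsc2, Dsc3, Perp, Gjb6 and Gja1) changed sign under at least 1 other setting on the CPM scale, and Dsc1 was at 0.21 when each cell had equal weight. Dsg3 stayed between 0.71 and 1.20, and Dsp between -0.45 and -0.04. Gjb2 sat at the 2-fold limit. Its log2 ratio was 0.65 with a marker gate on single cells and 0.70 when the subsets were given the same weights in both libraries, a setting added after the values were seen.

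The ratios were also taken within each layer. In basal-like cells Gjb2 was 21.7 CPM (32 UMIs) in WT_LW and 86.0 CPM (287 UMIs) in TLR9agonist_LW, a log2 ratio of 1.99 (1.46 to 2.56), and its T cell level was 3.36 and 23.3 CPM. Other clustering settings moved this value to between 0.70 and 2.02. In differentiated-like cells the levels of 499.5 and 578 CPM gave 0.21 (0.12 to 0.30). Without batch correction the ratios of Gjb2 were 0.70 and 0.81 in the 2 subsets, so which layer had the larger ratio depended on the clustering. Dsg3 had a log2 ratio of 0.44 (0.17 to 0.73) in basal-like cells and 1.57 (1.22 to 1.95) in differentiated-like cells, where other settings gave 1.10 to 2.42. Dsc1 in differentiated-like cells was 202 CPM in WT_LW and 97.3 CPM in TLR9agonist_LW, a log2 ratio of -1.05 (-1.22 to -0.89), but when each cell had equal weight the ratio was -0.05. In the basal-like subset 4.2% of all genes were at least 2-fold higher and 7.68% lower, and in the differentiated-like subset 4.93% were higher and 12.6% lower. Dsp had log2 ratios of -0.57 and -0.43 in the 2 subsets (0.15 in the differentiated-like subset when each cell had equal weight). The median gene of these subsets had log2 ratios of -0.05 and -0.22. Relative to the median gene of the subset, Dsp was at -0.52 and -0.20, Dsg1a at -0.88 and -0.31, and Perp at -0.09 and -0.08. Gja1 was at -0.21 and 0.17.

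**Figure D3:**
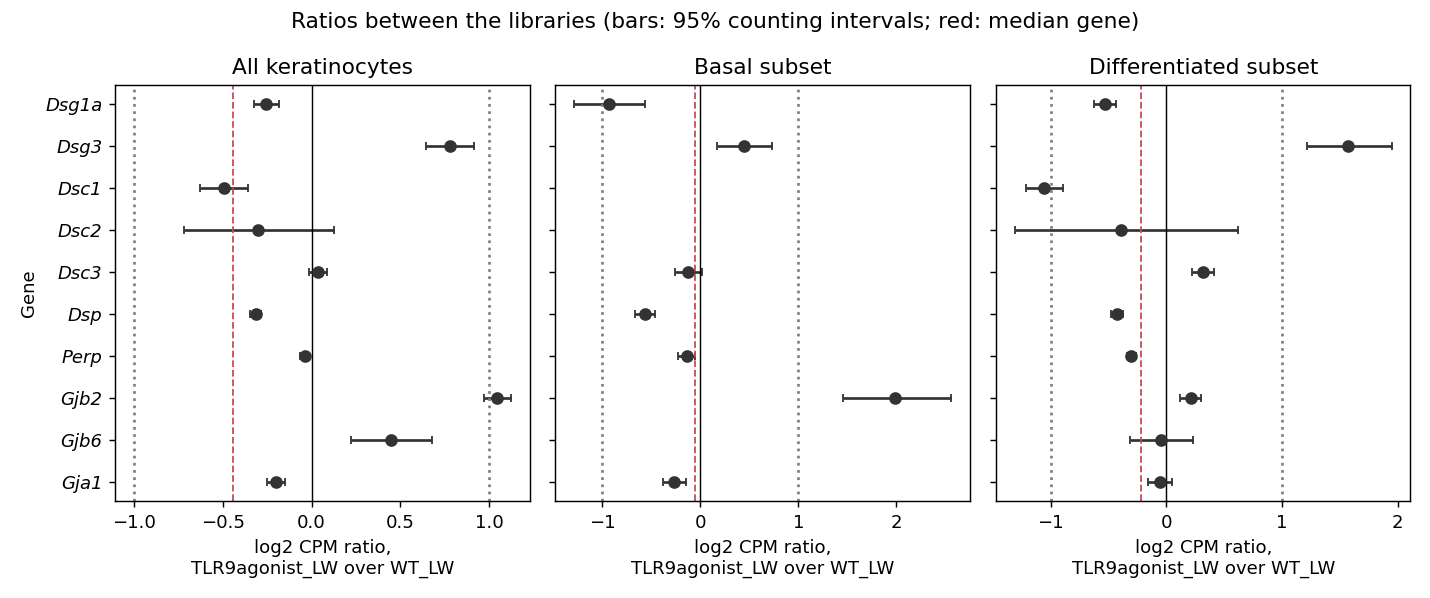
Log2 ratio of the level in TLR9agonist_LW over WT_LW for each gene (rows) in all keratinocytes, the basal-like and the differentiated-like subset, with 95% counting intervals as bars, dotted lines at 2-fold and a red dashed line at the median gene. Genes with under 50 UMIs in a subset are not drawn. Gjb2 is highest in basal-like cells (1.99) and Dsg3 in differentiated-like cells (1.57), and Dsc1 is lowest in differentiated-like cells (-1.05).

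The sub-clusters of the differentiated-like subset were present in different proportions in the 2 libraries, so the genes were also read within each. In WT_LW 53 of 122 cells lay in the sub-cluster led by Calm5 and Krt10, while in TLR9agonist_LW 112 cells lay there and 113 in one led by Slc5a1, Gjb2 itself and Ugcg that held 19 cells of WT_LW. Junction genes were not among the genes used for clustering. Depth differed within sub-clusters too, with medians of 6850 and 28972 UMIs in the Calm5-led cells. In the 4 differentiated-like sub-clusters with at least 15 cells in each library, Dsc1 was lower in TLR9agonist_LW in 4 of 4. It was 161 and 76.0 CPM in the Calm5-led cells, 394 and 203 CPM in the Slc5a1-led cells, 167 and 64.6 CPM in those led by Ccl8 and Isg15, and 202 and 100.2 CPM in those led by Sprr2i and Cnfn. Dsg3 was higher in 4 of 4, with 21.7 and 41.9 CPM, 94.7 and 315 CPM, 34.2 and 119.6 CPM, and 0 CPM (0 UMIs) and 53.5 CPM in the same order. Dsp was lower in 4 of 4. Gjb2 was not uniform, with 63.8 and 253 CPM in the Calm5-led cells and 1212 and 1659 CPM in the Slc5a1-led cells, but 522 and 422 CPM and 774 and 615 CPM in the other two. Sub-clusters of 1 library are not replicates, and these counts are descriptions. The share of all genes with the same direction in each sub-cluster was not counted. Over all keratinocytes only 1974 of 10950 counted genes had a log2 ratio above 0.

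Over all 11 keratinocyte sub-clusters of that size, Dsg3 was higher in TLR9agonist_LW in 10, Gjb2 in 8 and Dsc1 in 3. Dsg3 was lower in the upper hair follicle-like cells, with 54.5 and 42.2 CPM (26 and 49 UMIs). Gja1 was higher in 3 and lower in 8. In an unnamed sub-cluster led by Sostdc1 and Ccl27a Gja1 was 101 and 283 CPM, a log2 ratio of 1.48 (1.13 to 1.86). The highest Gjb2 levels outside the differentiated-like cells were in an unnamed sub-cluster led by Gsta4 and Krt6b, with Gjb2 also among its 10 leading genes, at 1115 and 1035 CPM. That sub-cluster had only 16 cells in WT_LW (median 1707 UMIs) against 77 in TLR9agonist_LW (median 36981 UMIs), so it carried more weight in the treated library.

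To follow the layers without clusters, keratinocytes with at least 20 UMIs of Krt1, Krt10, Krt5 and Krt14 were placed in 5 bins by the share of Krt1 and Krt10, keratins of the upper layers, in the sum of these 4, with limits at 5%, 25%, 50% and 75%. Dsg1a, Dsc1, Dsp and Perp were highest in the top bin of both libraries. Gjb2 was highest in the middle bin of both, with 419.9 CPM in WT_LW and 651 CPM in TLR9agonist_LW, compared with 60.3 and 114 CPM in the lowest bin and 206 and 459 CPM in the top bin. Dsg3 was highest in the third bin of WT_LW (99.98 CPM) and the second of TLR9agonist_LW (127 CPM), and in the top bin it was 30.9 and 84.3 CPM. Gja1 stayed between 388 and 613 CPM in every bin of both libraries.

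The libraries were then compared within bins. Dsg3 and Gjb2 were higher in TLR9agonist_LW in 5 of 5 bins, with counting intervals apart in 4 for each. Dsc1 and Dsp were lower in 5 of 5 bins with intervals apart in all 5, and Dsg1a was lower in 5 of 5 with intervals apart in 4. The share of all genes higher or lower in every bin was not counted. Over all keratinocytes only 1974 of 10950 counted genes had a log2 ratio above 0, so lower was the common direction. In the top bin Dsc1 was 175 CPM in WT_LW and 105 CPM in TLR9agonist_LW. Krt1 itself was 25145 and 11296 CPM in that bin, so the cells of a bin did not carry equal amounts of keratin in the 2 libraries.

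**Figure D4:**
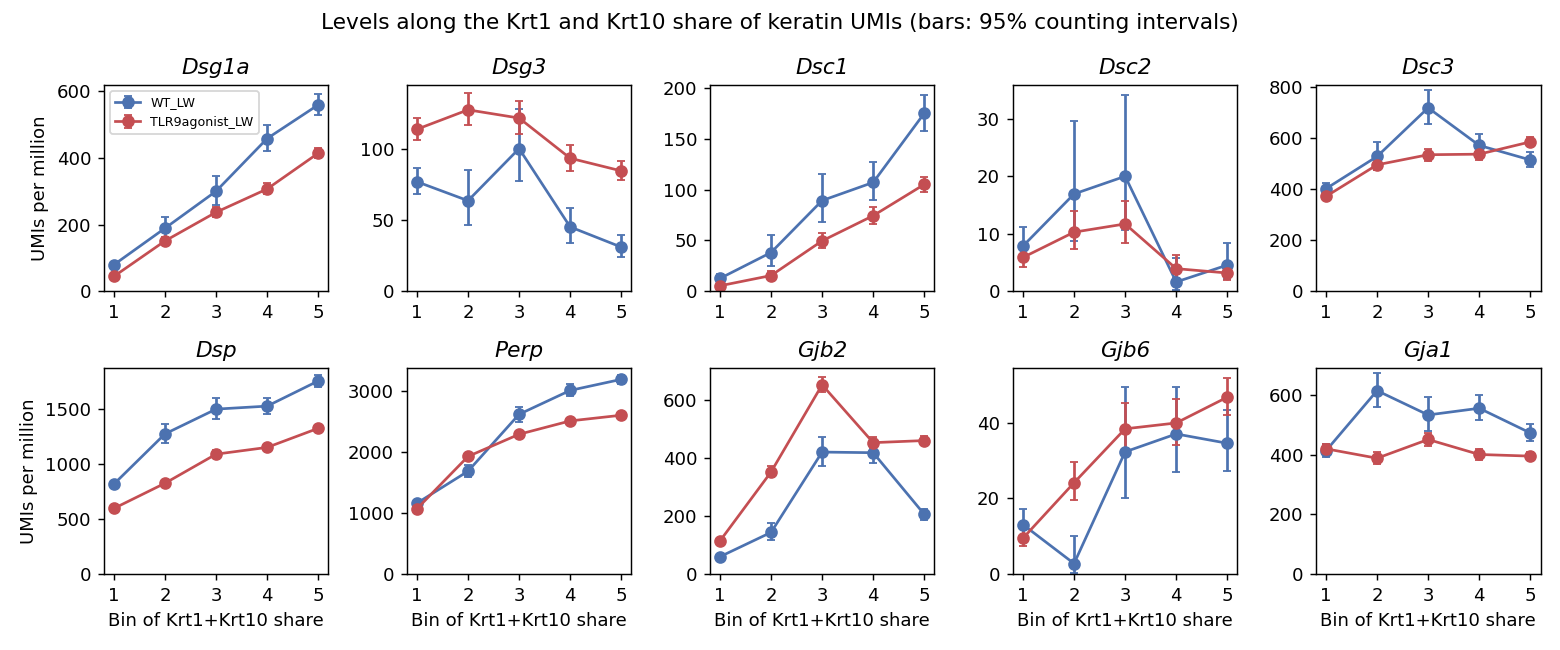
Level of each gene (UMIs per 1000000, axes starting at 0) in 5 bins of keratinocytes ordered by the Krt1 and Krt10 share of keratin UMIs, in WT_LW (blue) and TLR9agonist_LW (red), with 95% counting intervals as bars. Dsg1a, Dsc1, Dsp and Perp climb to the top bin, Gjb2 peaks in the middle bin (419.9 and 651 CPM), and the Dsg3 and Gjb2 lines of TLR9agonist_LW lie above those of WT_LW in every bin.

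The share of cells with a UMI gave the same order of abundance. With each keratinocyte thinned to 1500 UMIs, which left out 49 cells of WT_LW and 0 of TLR9agonist_LW, Perp was detected in 86.1% of keratinocytes of WT_LW and 89.5% of TLR9agonist_LW, and Dsp in 68.1% and 70.6%. Gjb2 was detected in 16.1% (Clopper-Pearson interval 12.7 to 19.9) and 30.3% (27.7 to 33.1), against 36.4% and 63.9% without thinning. Dsg3 was detected in 8.27% (5.83 to 11.3) and 16.6% (14.4 to 18.8). In T cells, which should lack these genes, the thinned shares were 0.534% and 4.10% for Gjb2, 0.0485% and 0.407% for Dsg3, and 5.44% and 17.4% for Perp, at median depths of 4221.5 and 4517 UMIs.

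Outside keratinocytes the desmosome genes, Gjb2 and Gjb6 were far lower. The T cell level was 1.48% of the keratinocyte level for both Dsp and Perp in WT_LW, and 5.25% and 5.91% in TLR9agonist_LW. Perp was 30.9 and 120.3 CPM in T cells, 20.1 and 72.1 CPM in macrophages and dendritic cells, and 23.6 and 75.8 CPM in endothelial cells. Neutrophils of WT_LW were above the T cell level, on few UMIs. They had 141 CPM of Dsp (21 UMIs), 121 CPM of Perp (18 UMIs), 74.1 CPM of Dsc3 (11 UMIs) and 33.7 CPM of Gjb2 (5 UMIs). In TLR9agonist_LW their Perp level was 218 CPM and their Dsp level was 93.1 CPM (49 UMIs), lower than in WT_LW. The T cell levels of Dsp and Perp were thus higher in TLR9agonist_LW, the library in which keratinocytes held the larger share of UMIs. Free RNA, remaining doublets and expression by the cells themselves were not told apart, and the cause was not tested.

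Gja1 was the exception. Keratinocytes held 40.002% of its UMIs in WT_LW and 49.5% in TLR9agonist_LW, fibroblasts 34.7% and 29.1%, and endothelial cells 13.2% and 13.0%. Its level in fibroblasts was 235 CPM in WT_LW and 209 CPM in TLR9agonist_LW. In endothelial cells of blood vessels it was 281 CPM (266 to 297) in WT_LW and 702 CPM (676 to 728) in TLR9agonist_LW, a log2 ratio of 1.32 (1.23 to 1.41), where 3.56% of all genes in that class were at least 2-fold higher and 15.7% lower. The share of these cells with a UMI of Gja1 was 29.97% (26.3 to 33.8) and 59.4% (54.2 to 64.4) when thinned to 1500 UMIs, and 61.6% and 88.4% without thinning. In lymphatic endothelial cells the levels were 268 and 276 CPM, with overlapping intervals. Schwann cells had 41.7 and 77.5 CPM, beside T cell levels of 13.2 and 23.5 CPM. Macrophages and dendritic cells (11.1 and 19.6 CPM) were below the T cell level of their library, and pericytes and smooth muscle cells were slightly above it in WT_LW (15.5 CPM) and below it in TLR9agonist_LW (17.7 CPM). The endothelial log2 ratio stayed between 1.25 and 1.46 under the other settings on the CPM scale, and the make-up of the endothelial class was not compared.

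**Figure D5:**
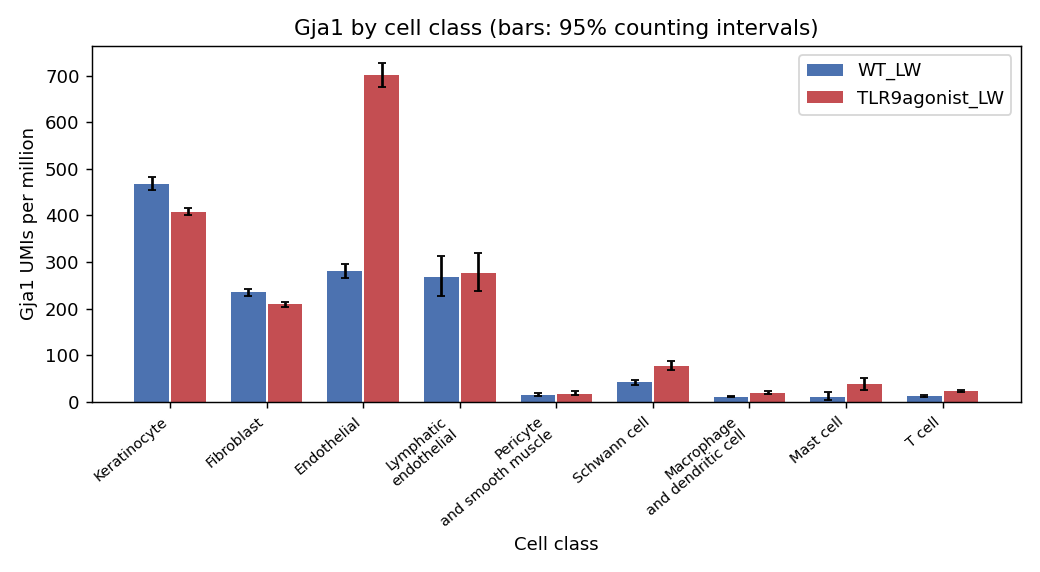
Gja1 level (UMIs per 1000000, axis from 0) by cell class in WT_LW (blue) and TLR9agonist_LW (red), with 95% counting intervals as black lines. Endothelial cells have 281 CPM (WT_LW) and 702 CPM (TLR9agonist_LW), while keratinocytes, fibroblasts and lymphatic endothelial cells differ far less.

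Further genes of these junctions were read from lists. Of 9 further desmosome genes with at least 50 UMIs in keratinocytes, 0 were at least 2-fold higher in TLR9agonist_LW and 2 at least 2-fold lower, close to the shares of 2.55% and 20.3% over all genes. Corneodesmosin (Cdsn), which joins the outermost cells, was 17.96 and 2.70 CPM (log2 ratio -2.74), and Dsg2, a desmoglein of simple and basal epithelium, was 28.8 and 14.2 CPM (-1.03). The most abundant were Pkp1 (572 and 384 CPM) and plakoglobin, Jup (569 and 529 CPM), both plaque proteins, followed by Pkp3 (200.03 and 139.5 CPM, beside 138 and 69.7 CPM in T cells). Of 4 other connexins and pannexins counted, 0 were at least 2-fold higher. Among them the connexin gene Gjb5 was 24.8 and 9.51 CPM (-1.38). Relative to the median gene the values of Gjb5 and Dsg2 were -0.94 and -0.58.

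Among adherens junction genes 0 of 10 lay past 2-fold in either direction, where 2.55% of all genes counted were higher and 20.3% lower. By summed UMIs the first were E-cadherin (Cdh1) with 197 and 268 CPM, α-catenin (Ctnna1) with 136 and 165 CPM and β-catenin (Ctnnb1) with 219 and 121 CPM. Tight junction genes, which seal the space between cells, included 4 of 10 at least 2-fold higher in TLR9agonist_LW, against 2.55% of all genes. None of them was at least 2-fold lower, against 20.3% of all genes. Among the higher ones were Cldn4 with 18.2 and 153 CPM (log2 ratio 3.07), occludin, Ocln, with 4.12 and 14.8 CPM (1.84), and Cldn1 with 90.5 and 262 CPM (1.53). Of 9 desmosome-cleaving proteases and their inhibitors, 0 were higher and 2 lower, namely the kallikreins Klk5 (32.0 and 6.89 CPM, -2.22) and Klk6 (23.9 and 11.6 CPM, -1.04), which is again close to the 20.3% of all genes that were lower. Relative to the median gene Klk5 was at -1.77 and Klk6 at -0.60, no longer past 2-fold. The most abundant of that list were Klk8, Klk7 and the inhibitor Spink5, at 171 and 106, 138 and 112, and 83.9 and 77.8 CPM. Klk8 was also found in T cells, with 105 and 111 CPM. The median log2 ratio was -0.12 over the 10 junction genes, -0.52 over the further desmosome genes, 0.17 over the tight junction genes and -0.52 over all genes counted.

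The pattern of each gene over 31 groups (cell classes, named keratinocyte subsets and unnamed keratinocyte sub-clusters with at least 50 cells in a library) was compared with that of every gene with at least 200 UMIs in keratinocytes, by Pearson's r of log2(CPM + 1). Points of 1 library share its background and depth, and most epithelial genes correlate because keratinocytes stand apart from other cells, so r is a description only. Dsp and Perp were most like each other among the members (r = 0.99), and Perp was most like Sfn and Ly6d. Dsg3 was most like Krt14, Cdcp1 and Ripk4 (0.971, 0.965 and 0.960), and Dsc1 was most like Krt10, Calm4 and Teddm3 (0.961, 0.955 and 0.955). Dsg1a was most like Dmkn, Perp and Bnipl (all 0.97), and Dsc3 was most like Dsp, Trim29 and Perp (all 0.98). Gjb2 was most like Krt16, Lypd3 and Rab25 (0.939, 0.938 and 0.925), and its best member was Perp (0.90). Gjb6 was most like Tmem125, Fam84a and Calml3, with r between 0.86 and 0.88. Gja1 stood apart, since its closest genes were S100a16 (0.87), Nxn (0.81) and Mdfi (0.80), and its best member was Dsc2 (0.67).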

How the data were processed

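Both libraries were made with 10x Genomics 3′ chemistry. For each library the authors deposited a matrix of unnormalised UMI counts by gene and barcode; the matrix header names Cell Ranger 4.0.0, and per the labels' processing notes fastp, Cell Ranger and Seurat were used with mm9. Gene positions here come from GRCm38 by Ensembl identifier, and no coordinate came from the deposited files.

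Cells with at least 500 UMIs, 300 genes and at most 15% mitochondrial UMIs were kept (11443 in WT_LW and 13206 in TLR9agonist_LW). A simulated-doublet score removed 1031 and 1337 of them, which left 79617640 and 105167554 UMIs. Cells were clustered with Leiden (leidenalg 0.10.2, resolution 1) on principal components corrected between libraries by an implementation of the Harmony method. Clusters were named from marker lists, and 1823 and 1553 cells were set aside. Their cluster had no class name, or its 10 leading genes held more markers of another class than of its own. Keratinocyte sub-clusters were set aside where another class had the higher marker score. Among the cells set aside were T cell clusters led by genes such as Cd8a (829 and 553 cells) and Foxp3 (403 and 232 cells). The T cell class used here lacks these cells. The rule for setting sub-clusters aside was revised after clusters were seen. Junction genes were left out of clustering. UMIs were summed per class and library and given per 1000000 (CPM) with exact Poisson 95% intervals. Ratios have exact conditional binomial intervals and shares have Clopper-Pearson ones, which all measure counting error alone. A gene was counted with at least 50 UMIs in both libraries together, and the median gene was taken over genes with at least 200 UMIs. With 1 library per group there was no test. The computations used Python 3.11.15, numpy 2.4.6 and scipy 1.17.1, and the ratio code was tested on simulated data.

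The 10 genes and all lists were chosen with earlier results of these data known. Of each list, the text names the genes past 2-fold and the 3 with the most UMIs in keratinocytes, and for each junction gene the 3 genes most like it. The other genes named were chosen after their values were seen. Some genes of these lists are not reported here. Alternatives were a stricter cell filter, doublets kept, no batch correction, Leiden resolution 2, a marker gate on single cells, equal weight per cell, scaling by the median gene, other limits on low counts and set-aside clusters kept. Weighting by subset and subtraction of the T cell level were added after the data were seen.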

Additional observations from a re-analysis of the deposited data

Results flagged for a closer look

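Gja1 had opposite directions in endothelial cells and in 2 other classes. Its log2 ratio of TLR9agonist_LW over WT_LW was 1.32 in endothelial cells, -0.20 in keratinocytes and -0.17 in fibroblasts. The endothelial ratio exceeded that of keratinocytes by 1.52 and that of fibroblasts by 1.49 on the log2 scale. With 1 library per group these differences were not tested. Relative to the median gene of each class the ratios were 1.68, 0.24 and 0.10, so the directions were no longer opposite.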

How the results depend on the processing

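The count of junction genes at least 2-fold higher in keratinocytes of TLR9agonist_LW was 1, and it was 0 without batch correction, 0 with the marker gate, 0 with subsets weighted alike, 0 with the T cell level subtracted and 2 with median-gene scaling. The count with at least 80% of their UMIs in keratinocytes was 9 in each library. With doublets kept it was 3 in WT_LW and 0 in TLR9agonist_LW, and with the marker gate it was 0 in TLR9agonist_LW. The count detected in at least 50% of keratinocytes was 2 in each library, and without thinning it was 5 in WT_LW and 7 in TLR9agonist_LW. The causes were not tested. Of the other values, 262 moved by less than their counting interval and 174 by more. The depth gap between keratinocytes of the 2 libraries and the low counts of Dsc2 and Gjb6 limit what can be read. No paired analysis was possible because each group has 1 library.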
